A study of Mus musculus with 6 samples.

Results

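The 8 genes of the hepatic methionine cycle and transsulfuration route described here are Mat1a, Mat2a, Gnmt, Ahcy, Bhmt, Bhmt2, Cbs and Cth. They were chosen by their known function and matched by GENCODE M21 symbol to the count table, which holds 54532 genes with an Ensembl identifier. Each of the 8 was found once and passed the filter on low counts, so that all 8 were among the 12795 genes tested. In this pathway a methionine adenosyltransferase turns methionine into S-adenosylmethionine (SAM), the methyl donor of the cell, and methyltransferases use SAM and leave S-adenosylhomocysteine (SAH). SAH is split into adenosine and homocysteine, which is either methylated back to methionine, with betaine or a folate as the donor, or passed through cystathionine to cysteine. The liver is known as the main organ of methionine metabolism, and it holds a SAM synthesis enzyme, Mat1a, and a betaine-dependent route that most other tissues use little.

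Liver RNA was sequenced in 2 groups of 3 libraries, HFD (libraries 1 to 3) and HFD+Allantoin-H (libraries 4 to 6). Both groups came from male C57BL/6 J mice, labelled as wild type (WT), which started at 8 weeks of age on a high-fat diet (HFD) for 4 weeks and then stayed on this diet for 4 more weeks. The HFD+Allantoin-H mice additionally received allantoin, an oxidation product of uric acid, in the drinking water during the last 4 weeks. The concentration for this group name was 0.3 mg/mL, taken from the methods, since the labels name 0.06 and 0.3 mg/mL without tying one to a library, and the labels' own wording on age differs from the methods. The comparison of HFD+Allantoin-H with HFD asks which liver transcripts differ with high-dose allantoin on this diet. No chow library was among the samples used here. The labels do not say whether each library is 1 animal, so p-values measure the spread between these libraries, and a batch or date, which the labels do not give, cannot be told apart from the group.

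Totals ran from 11326372 to 14601457 counts per library. The liver label fitted the marker genes, since Alb, the albumin gene, was read at 54402 to 82145 normalised counts-per-million (CPM) units in every library. The libraries differed in other ways, some of which move with the group and some of which belong to 1 library. Mitochondrial chromosome genes took 17.9% to 36.4% of counts in HFD, highest in HFD 1, and 6.90% to 11.3% in HFD+Allantoin-H. Library HFD 2 held 520 counts of the adipocyte gene Adipoq, against 0 or 1 in each other library, and had the highest sum of the adipocyte markers (97.6 to 346 CPM in HFD, 46.6 to 125 CPM in HFD+Allantoin-H). Library HFD 3 held 521 counts of the bile duct gene Sox9 and had the highest sum of the cholangiocyte markers (34.3 to 159 CPM in HFD, 21.7 to 76.7 CPM in HFD+Allantoin-H). Of the listed markers, 3 of 8 hepatocyte genes were called lower, and 3 of 6 macrophage and 5 of 6 stellate cell genes were called higher in HFD+Allantoin-H. Over all tested genes, 13.0% were called lower and 11.3% higher. Of the other cell types, 0 of 6 sinusoidal endothelial genes and 0 of 2 tested adipocyte genes were called, and 1 of 3 tested cholangiocyte genes was called lower. The macrophage markers summed to 102 to 242 CPM in HFD and 293 to 331 CPM in HFD+Allantoin-H, the stellate cell markers to 119 to 181 CPM and 304 to 357 CPM, and those of sinusoidal endothelial cells, which overlapped, to 64.5 to 113 CPM and 101 to 159 CPM. Their part in the results below was not tested. In whole liver, fewer cells of a type and less RNA per cell cannot be told apart.

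The sequence just upstream of the RefSeq and GENCODE starts is shown for Gnmt, the member with the largest difference between the groups, and for the neighbouring pair Bhmt and Bhmt2, whose ratio did not overlap between the groups. Of the 8 genes, 6 had a window in the RefSeq table (GRCm38.p6), and Mat1a and Cth did not. Windows were cut to end before the gene's own annotated exons, and all 3 genes lie on the minus strand. Exons of other genes within the windows were not looked for. The Gnmt window is chr17:46729212-46729415 (204 bases), the Bhmt window chr13:93637962-93638008 (47 bases) and the Bhmt2 window chr13:93674303-93674552 (250 bases). They are written 5′ to 3′ on the gene's strand, with capitals for matches to the searched letters on either strand.
Gnmt upstream: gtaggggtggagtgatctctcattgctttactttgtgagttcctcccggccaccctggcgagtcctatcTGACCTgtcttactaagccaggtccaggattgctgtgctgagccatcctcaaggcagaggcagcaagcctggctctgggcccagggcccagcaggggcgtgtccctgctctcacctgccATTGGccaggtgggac
Bhmt upstream: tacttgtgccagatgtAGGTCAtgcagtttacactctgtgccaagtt
Bhmt2 upstream: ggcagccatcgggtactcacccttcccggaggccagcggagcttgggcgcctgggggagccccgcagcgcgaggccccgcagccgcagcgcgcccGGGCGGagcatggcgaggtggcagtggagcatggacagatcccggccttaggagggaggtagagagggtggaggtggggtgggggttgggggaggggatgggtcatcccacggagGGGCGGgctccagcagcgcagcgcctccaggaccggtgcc

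The letters searched on both strands were AGGTCA, the core site of many nuclear receptors, CCAAT, the box of that name, GGGCGG, the GC box, TATAA, the letters of the TATA box, and CACGTG, an E-box, and no match shared bases with another. The Gnmt window held 1 AGGTCA match, read as TGACCT on the printed strand, and 1 CCAAT match, read as ATTGG. Of all 32851 promoter windows cut to the same 204 bases, 11.6% held AGGTCA and 29.1% held CCAAT. The Bhmt window held 1 AGGTCA match, against 2.6% of all windows of 47 bases. The Bhmt2 window held 2 GGGCGG matches, against 32.7% of all windows of 250 bases, and its GC content was 74.0%, compared with 60.8% for Gnmt and 44.7% for Bhmt. These matches describe the letters of the windows only.

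By the quasi-likelihood test of edgeR, with p-values adjusted over all 12795 genes, Gnmt and Mat1a were higher in HFD+Allantoin-H than in HFD, and the other 6 genes did not pass an adjusted p of 0.05. Gnmt, which spends SAM on the methylation of glycine, rose 4.24-fold, and Mat1a, the SAM synthetase of the adult liver, rose 1.72-fold. Thus 2 of 8 were called higher, where 11.3% of all tested genes were called higher, 13.0% lower and 24.3% in either direction. By edgeR 0 of 8 were called lower, while 1 (Bhmt) had an unadjusted p under 0.05 and 1 was called lower by DESeq2 and 1 by limma-voom. The log2 fold change was above 0 in 6 of 8 genes, compared with 48.2% of all tested genes. The median log2 fold change of the 8 was 0.31, against a median of −0.03 and quartiles of −0.54 and 0.44 over all tested genes. The groups did not overlap in 3 of the 8 (44.3% of all tested genes), with 2 higher in HFD+Allantoin-H (22.4%) and 1 lower (21.9%). Summed over the 8 genes, the level was 9830 to 13494 CPM in HFD and 10167 to 15045 CPM in HFD+Allantoin-H, so that the sums overlapped.

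**Figure D1:**
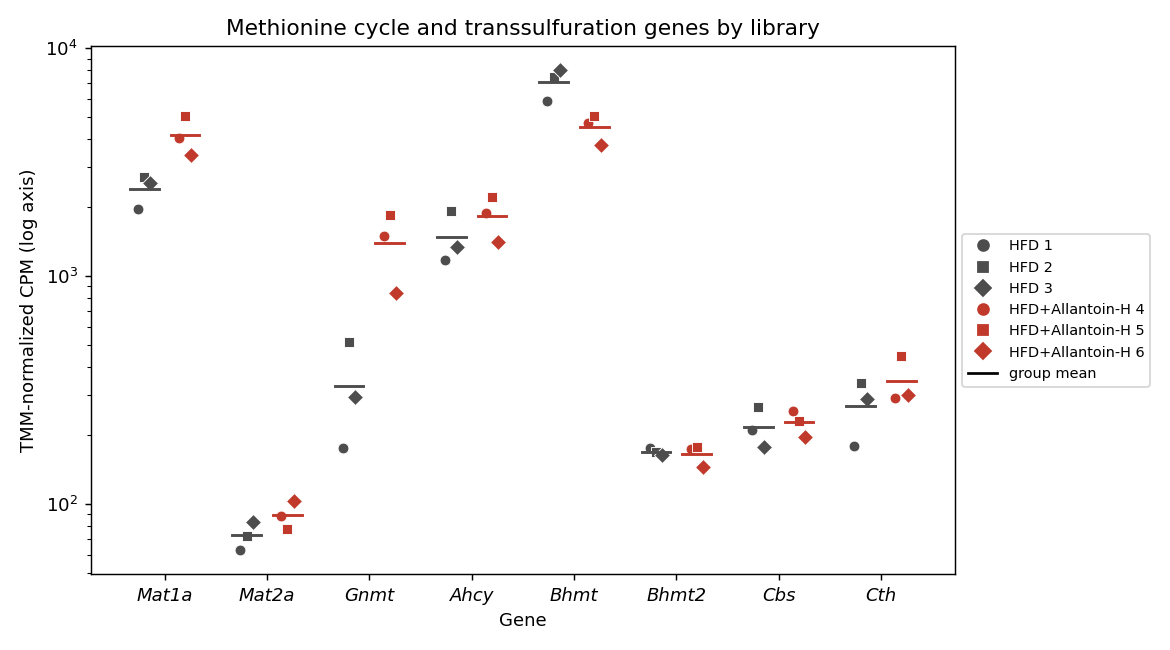
Level of the 8 genes in each library, as TMM-normalised CPM on a log axis, with HFD libraries in grey, HFD+Allantoin-H libraries in red and a line at each group mean. For Mat1a and Gnmt the 3 HFD+Allantoin-H points sit above all HFD points, for Bhmt they sit below them, and for the other 5 genes the groups overlap.

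SAM is made by methionine adenosyltransferases, whose catalytic subunits are encoded by Mat1a in the adult liver and by Mat2a in most other cells. Mat1a (ENSMUSG00000037798, chromosome 14, 41105035 to 41124412 in GRCm38) had 1963, 2717 and 2568 TMM-normalised CPM in HFD 1 to 3 and 4051, 5035 and 3413 CPM in HFD+Allantoin-H 4 to 6. TMM, a trimmed mean of gene ratios, corrects the library size by which counts are divided. Every HFD+Allantoin-H library stood above every HFD library. The means were 2416 ± 399 CPM (SD, n = 3) and 4166 ± 817 CPM (SD, n = 3). The log2 fold change was 0.79 (SE 0.22, 95% interval 0.28 to 1.29) with an edgeR adjusted p of 0.0330, and 87.4% of all tested genes had a lower log2 fold change. This call rested on single libraries: the adjusted p was 0.0600 without HFD 1 (log2 fold change 0.65), 0.0894 without HFD+Allantoin-H 4 (0.81) and 0.132 without HFD+Allantoin-H 5 (0.63), while it was called without HFD 2, HFD 3 or HFD+Allantoin-H 6. Mat2a (ENSMUSG00000053907, chromosome 6, 72432799 to 72439558) had 62.7, 72.5 and 83.4 CPM in HFD and 88.5, 77.6 and 103 CPM in HFD+Allantoin-H. Library 5 of HFD+Allantoin-H lay below HFD 3, so the groups overlapped. The log2 fold change of Mat2a was 0.30 (SE 0.18, 95% interval −0.11 to 0.70, edgeR adjusted p = 0.251).

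Glycine N-methyltransferase, encoded by Gnmt, turns glycine into sarcosine and is regarded as the enzyme that drains surplus SAM in the liver. Gnmt (ENSMUSG00000002769, chromosome 17, 46725664 to 46729168) had 176, 515 and 295 CPM in HFD and 1492, 1848 and 844 CPM in HFD+Allantoin-H. The lowest HFD+Allantoin-H library still exceeded the highest HFD library, HFD 2, although libraries within each group differed widely. The means were 329 ± 172 CPM and 1395 ± 509 CPM (SD, n = 3 each). The log2 fold change was 2.08 (SE 0.41, 95% interval 1.15 to 3.02, edgeR adjusted p = 0.00924), larger than that of 98.9% of the tested genes. It was called in each of the fits that left out 1 library, with log2 fold changes of 1.78 to 2.57 and adjusted p of at most 0.0440. Without HFD 2, the library with adipocyte transcripts, it was 2.57.

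The SAH left by methylation is hydrolysed by S-adenosylhomocysteine hydrolase, encoded by Ahcy (ENSMUSG00000027597, chromosome 2, 155059310 to 155074497). Ahcy had 1171, 1929 and 1339 CPM in HFD and 1885, 2212 and 1414 CPM in HFD+Allantoin-H. HFD 2 lay above libraries 4 and 6 of HFD+Allantoin-H, so the groups overlapped. The means were 1480 ± 398 CPM and 1837 ± 401 CPM (SD, n = 3 each), and the log2 fold change was 0.31 (SE 0.25, 95% interval −0.25 to 0.87, edgeR adjusted p = 0.385).

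Homocysteine is methylated with betaine by the product of Bhmt, and Bhmt2 encodes a related enzyme that takes the methyl group from S-methylmethionine. Both genes lie on the minus strand of chromosome 13, with a gap of 17758 bases between them. Bhmt (ENSMUSG00000074768, 93616675 to 93637961) had 5890, 7486 and 8022 CPM in HFD and 4688, 5018 and 3752 CPM in HFD+Allantoin-H. Every HFD+Allantoin-H library was below every HFD library. The means were 7133 ± 1109 CPM and 4486 ± 657 CPM (SD, n = 3 each), and HFD was 1.59 times HFD+Allantoin-H in the fit. The log2 fold change was −0.67 (SE 0.22, 95% interval −1.16 to −0.18), with an edgeR adjusted p of 0.0511, just outside the threshold. The call depended on the tool, since the adjusted p was 0.00601 by DESeq2 and 0.0335 by limma-voom. Without HFD 1 it was called lower by edgeR (−0.79, adjusted p = 0.0260), and with no correction beyond library size the log2 fold change was −0.27 (edgeR adjusted p = 0.493). Bhmt2 (ENSMUSG00000042118, 93655720 to 93674302) had 176, 168 and 163 CPM in HFD and 174, 178 and 145 CPM in HFD+Allantoin-H. The 2 groups overlapped at nearly the same level, with a log2 fold change of −0.03 (SE 0.16, 95% interval −0.39 to 0.32, edgeR adjusted p = 0.899).

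Transsulfuration takes homocysteine out of the cycle: cystathionine beta-synthase, from Cbs, joins it to serine, and cystathionine gamma-lyase, from Cth, releases cysteine. Cbs (ENSMUSG00000024039, chromosome 17, 31608894 to 31637238) had 210.4, 266 and 177 CPM in HFD and 256, 231 and 196 CPM in HFD+Allantoin-H. Cth (ENSMUSG00000028179, chromosome 3, 157894248 to 157925077) had 179.9, 340.04 and 287 CPM in HFD and 292, 446 and 299.9 CPM in HFD+Allantoin-H. In both genes the groups overlapped, and for Cth the lowest library was HFD 1 and the highest HFD+Allantoin-H 5. The log2 fold change was 0.07 for Cbs (SE 0.20, 95% interval −0.38 to 0.51, edgeR adjusted p = 0.839). For Cth it was 0.36 (SE 0.27, 95% interval −0.24 to 0.96, edgeR adjusted p = 0.346).

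**Figure D2:**
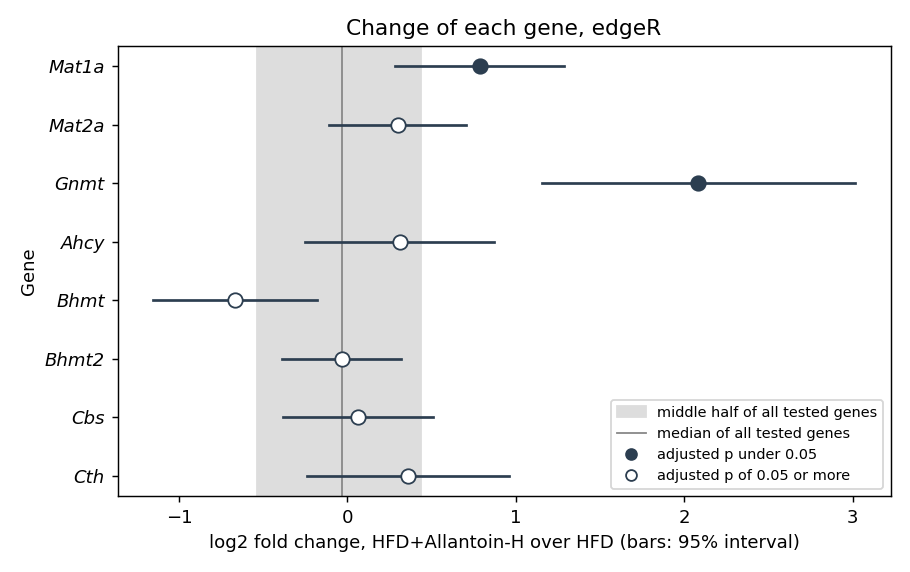
Log2 fold change of HFD+Allantoin-H over HFD for the 8 genes from edgeR, with bars for the 95% interval, filled points for an adjusted p under 0.05, a grey band between the quartiles of all tested genes and a line at their median. Gnmt at 2.08 and Mat1a at 0.79 are filled, and Bhmt at −0.67 is open although its interval stays below 0.

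The libraries of a group also stood in a partly shared order across the genes. HFD 1, with the largest mitochondrial share, was the lowest of its group in 6 of the 8 genes, and HFD 2 was the highest in 5. Among the HFD+Allantoin-H libraries, number 5 was the highest in 6 genes and number 6 the lowest in 6. For Mat1a and Gnmt the lowest library of each group was thus HFD 1 and HFD+Allantoin-H 6.

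Levels of different genes were compared per length, in RPKM (counts divided by union exon length in kilobases and by library size, with the same TMM library sizes). Union length merges the exons of all annotated transcripts, 7485 bases from 12 transcripts for Cbs and 2467 bases from 1 for Bhmt2. The order below depends on these lengths. By mean CPM, Cbs stood above Bhmt2 in HFD (218 and 169) and in HFD+Allantoin-H (228 and 166). In HFD the order of mean levels was Bhmt at 1239 ± 193 RPKM, Mat1a at 697 ± 115, Ahcy at 528 ± 142, Gnmt at 273 ± 143, Cth at 96.4 ± 29.2, Bhmt2 at 68.6 ± 2.65, Cbs at 29.1 ± 6.0 and Mat2a at 16.2 ± 2.32 RPKM (SD, n = 3). Neighbours in this order whose libraries overlapped were Mat1a and Ahcy, Ahcy and Gnmt, and Cth and Bhmt2. In HFD+Allantoin-H it was Mat1a at 1201 ± 236 RPKM, Gnmt at 1157 ± 422, Bhmt at 779 ± 114, Ahcy at 655 ± 143, Cth at 124 ± 31.0, Bhmt2 at 67.1 ± 7.37, Cbs at 30.4 ± 4.02 and Mat2a at 20.0 ± 2.82 RPKM (SD, n = 3). Here Mat1a and Gnmt, Gnmt and Bhmt, and Bhmt and Ahcy overlapped as neighbours. Gnmt moved from the fourth to the second place and Bhmt from the first to the third, and the lower 4 places were held by Cth, Bhmt2, Cbs and Mat2a in both groups. By mean CPM, each of the 8 genes stood above at least 88.98% of the tested genes.

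Ratios of 2 genes within a library do not depend on how libraries are scaled to each other, and 4 were compared by a two-sided exact permutation test over libraries, whose smallest possible p with 3 against 3 libraries is 0.10. The per-length ratio of Mat1a to Gnmt, SAM synthesis against glycine methylation, was 3.87, 1.83 and 3.03 in HFD and 0.944, 0.947 and 1.41 in HFD+Allantoin-H. It was lower in every HFD+Allantoin-H library, by 1.37 on the log2 scale on average (difference of means −1.37), with an exact permutation p of 0.10 (adjusted p = 0.20 over the 4 ratios). The per-length ratio of Bhmt to Bhmt2 was 14.3, 19.0 and 21.04 in HFD and 11.6, 12.1 and 11.1 in HFD+Allantoin-H. These also did not overlap, with a log2 difference of −0.63 and an exact permutation p of 0.10 (adjusted p = 0.20). The per-length ratio of Mat1a to Mat2a was 40.5, 48.5 and 39.8 in HFD and 59.2, 83.9 and 42.9 in HFD+Allantoin-H, and that of Cbs to Cth was 0.436, 0.292 and 0.230 against 0.328, 0.193 and 0.244. Both overlapped between the groups, with log2 differences of 0.48 (exact permutation p = 0.20, adjusted p = 0.267) and −0.31 (exact permutation p = 0.50, adjusted p = 0.50). The size of the Cbs to Cth ratio, though not its log2 difference between groups, depends on the union exon lengths, 7485 and 2791 bases.

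**Figure D3:**
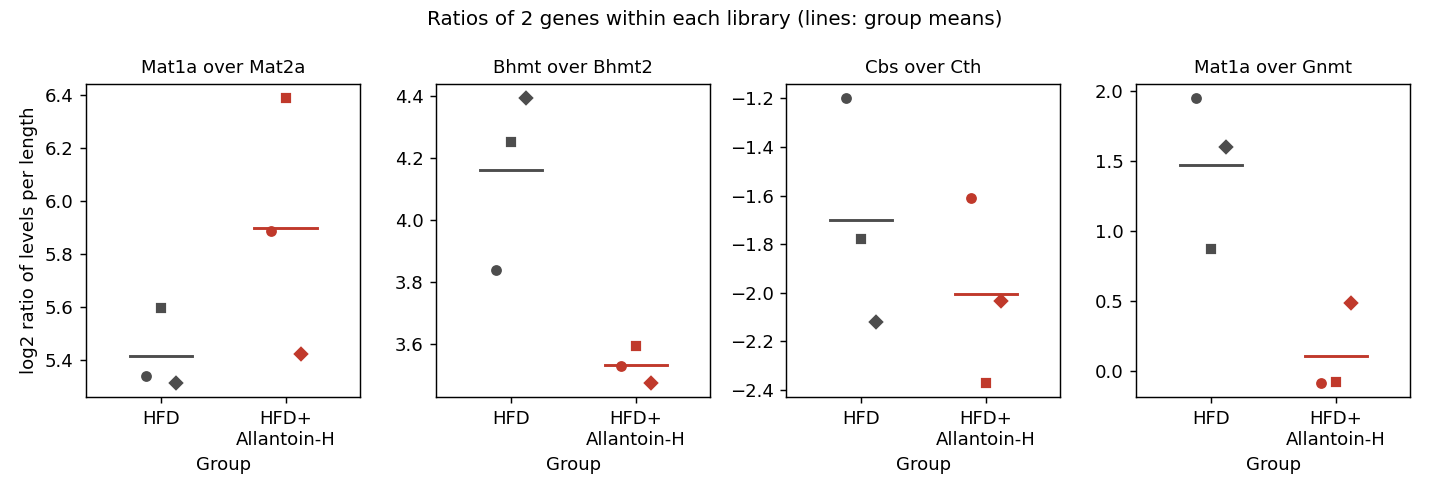
Log2 ratio of the per-length levels of 2 genes within each library, in HFD (grey) and HFD+Allantoin-H (red), where circles, squares and diamonds stand for the libraries of a group in order of number and lines for group means. Bhmt over Bhmt2 and Mat1a over Gnmt are lower in all 3 HFD+Allantoin-H libraries, whereas Mat1a over Mat2a and Cbs over Cth overlap.

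Ahcy and Bhmt share sequence with near-identical copies elsewhere in the genome, so that the counting could split reads between them. These copies were looked up by sequence identity, and their values were singled out after being seen. The gene Gm4737 is 99.7% identical to Ahcy over 2083 bases and had 118, 202 and 146 CPM in HFD and 321, 376 and 230.2 CPM in HFD+Allantoin-H, with no overlap. It rose by a log2 fold change of 0.99 (SE 0.25, edgeR adjusted p = 0.0223), a call lost without HFD 1 (0.83, adjusted p = 0.0522), HFD+Allantoin-H 4 (0.97, 0.0744) or HFD+Allantoin-H 5 (0.83, 0.0973). The pseudogene Gm9826, 99.2% identical over 1299 bases, rose by a log2 fold change of 2.49 (edgeR adjusted p = 0.00938), from 2.18 to 12.4 CPM in HFD to 38.7 to 62.4 CPM in HFD+Allantoin-H. Both copies together took 9.31% to 10.5% of the counts of Ahcy and its copies in HFD and 15.98% to 16.5% in HFD+Allantoin-H. The share was thus higher in every HFD+Allantoin-H library.

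For Bhmt, the gene Gm5096 (99.6% identical over 545 bases) had 185, 447 and 452 CPM in HFD and 537, 604 and 393 CPM in HFD+Allantoin-H, with a log2 fold change of 0.50 (edgeR adjusted p = 0.292), where Bhmt itself had −0.67. A second copy, Bhmt-ps1, had a log2 fold change of 1.30 (edgeR adjusted p = 0.0989). Together they took 3.06%, 5.69% and 5.39% of the counts of Bhmt and its copies in HFD and 10.4%, 10.9% and 9.63% in HFD+Allantoin-H. As with Ahcy, the share did not overlap between the groups. With the copies' counts added to the member, the log2 fold change was 0.42 for Ahcy (edgeR adjusted p = 0.250) and −0.58 for Bhmt (adjusted p = 0.0839), so that neither passed the threshold. Exons of Mat2a and Bhmt also overlap genes on the opposite strand, Particl and Gm15622, which had 69 and 99 counts in all libraries together, and whether strand was used in counting is not given in the sources used here.

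Around these 8 genes, 45 further genes of the pathway were listed by function, and all 45 were tested. By edgeR, 4 were called higher and 7 lower in HFD+Allantoin-H, 34 were not called, and the median log2 fold change was 0.02. The called share was 24.4%, against 24.3% of all tested genes (11.3% higher and 13.0% lower). The groups did not overlap in 20 of the 45, with 8 higher and 12 lower, a share of 44.4% against 44.3% of all tested genes. Both shares were near those of all genes, so the list as a whole did not stand apart by these counts. Of the 11 called genes, 3 (Gamt, Chdh and Odc1) were called in all 6 fits that left out a library.

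Choline oxidation supplies betaine to Bhmt and sarcosine-derived carbon to folate. Of its 4 listed genes, edgeR called 2 higher, against 11.3% of all tested genes. The groups did not overlap in 2 of the 4, both higher (22.4% of all tested genes). Chdh, the choline dehydrogenase, was at 66.1 ± 17.1 CPM in HFD and 148 ± 25.1 CPM in HFD+Allantoin-H (SD, n = 3), which gave a log2 fold change of 1.17 (SE 0.22, edgeR adjusted p = 0.00815). Sardh, which removes the methyl group of the sarcosine made by Gnmt, was at 539.5 and 952 CPM, with a log2 fold change of 0.82 (edgeR adjusted p = 0.0245). Its call was lost without HFD 1, HFD+Allantoin-H 4 or HFD+Allantoin-H 5, at log2 fold changes down to 0.66 and adjusted p up to 0.108.

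Of 8 genes of folate-dependent remethylation, 1 was called lower (Ftcd), against 13.0% of all tested genes. The log2 fold change was above 0 in 6 of the 8, with a median of 0.42. The groups did not overlap in 3 of the 8, with 2 higher (22.4% of all tested genes) and 1 lower (21.9%). Ftcd, which passes a carbon unit from histidine breakdown to folate, was at 445 and 246 CPM, with a log2 fold change of −0.85 (edgeR adjusted p = 0.0190), and its call was lost without any 1 of the HFD+Allantoin-H libraries (adjusted p up to 0.0855). In the upward direction edgeR called 0 of the 8, with 3 at an unadjusted p under 0.05 and 0 called by DESeq2 or limma-voom.

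Of 8 other SAM-dependent methyltransferases, edgeR called 2 lower, against 13.0% of all tested genes. The groups did not overlap in 3 of the 8 (44.3% of all tested genes), with 1 higher (22.4%) and 2 lower (21.9%). Gamt, which makes creatine and is regarded as a large user of SAM, was at 286 ± 50.2 CPM in HFD and 147 ± 16.8 CPM in HFD+Allantoin-H, with a log2 fold change of −0.96 (SE 0.19, edgeR adjusted p = 0.00862). Its log2 fold change was −0.54 after removal of a length and GC trend (edgeR adjusted p = 0.0325). With library size only it was −0.52 and not called (edgeR adjusted p = 0.0790). Tpmt, which methylates thiopurines, had a log2 fold change of −0.55 (edgeR adjusted p = 0.0318), and its call was lost without HFD 2 or without any 1 of the HFD+Allantoin-H libraries (adjusted p up to 0.152), and with no filter beyond 1 count (0.0913). In the upward direction edgeR called 0 of the 8, with 1 at an unadjusted p under 0.05 and 1 called by each of DESeq2 and limma-voom.

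Among 10 genes of cysteine use, edgeR called 1 higher and 2 lower, against 11.3% and 13.0% of all tested genes. The groups did not overlap in 7 of the 10 (44.3% of all tested genes), with 2 higher (22.4%) and 5 lower (21.9%). Suox, the mitochondrial sulfite oxidase, had a log2 fold change of 1.22 (edgeR adjusted p = 0.0124, and 0.0570 without HFD+Allantoin-H 5). Gss, the glutathione synthetase, had −0.90 (edgeR adjusted p = 0.0107), and Ethe1, which oxidises persulfides in mitochondria, had −0.75 (edgeR adjusted p = 0.0156). Both lost the call without HFD+Allantoin-H 5, Gss also without HFD+Allantoin-H 4 and Ethe1 also without HFD+Allantoin-H 6, with adjusted p up to 0.0652 and 0.0767. Ethe1 also lost it after removal of a length and GC trend (log2 fold change −0.38, edgeR adjusted p = 0.122).

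Of 9 genes of methionine salvage and polyamine synthesis, edgeR called 1 higher and 2 lower, against 11.3% and 13.0% of all tested genes. The groups did not overlap in 4 of the 9 (44.3% of all tested genes), with 1 higher (22.4%) and 3 lower (21.9%). Odc1, the ornithine decarboxylase, rose from 19.2 ± 7.55 CPM to 72.4 ± 5.71 CPM. Its log2 fold change was 1.91 (SE 0.28, edgeR adjusted p = 0.00396). The salvage enzymes Enoph1 and Apip fell, with log2 fold changes of −1.30 and −0.73 (edgeR adjusted p = 0.0222 and 0.0465). Enoph1 was a low gene, at 6.22 CPM in HFD and 2.52 CPM in HFD+Allantoin-H. Both of these calls were lost without HFD 1 or without any 1 of the HFD+Allantoin-H libraries, and that of Apip also without HFD 2, with adjusted p up to 0.101 and 0.146. Apip was also not called by limma-voom (adjusted p = 0.0559) or after removal of a length and GC trend (−0.49, edgeR adjusted p = 0.189). In the 3 genes that partner SAM synthesis and the 3 that remove SAH and adenosine, edgeR called 0, with 0 at an unadjusted p under 0.05 and 0 by DESeq2 or limma-voom. Their log2 fold changes ran from −0.32 to 0.17 and from −0.24 to 0.05.

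**Figure D4:**
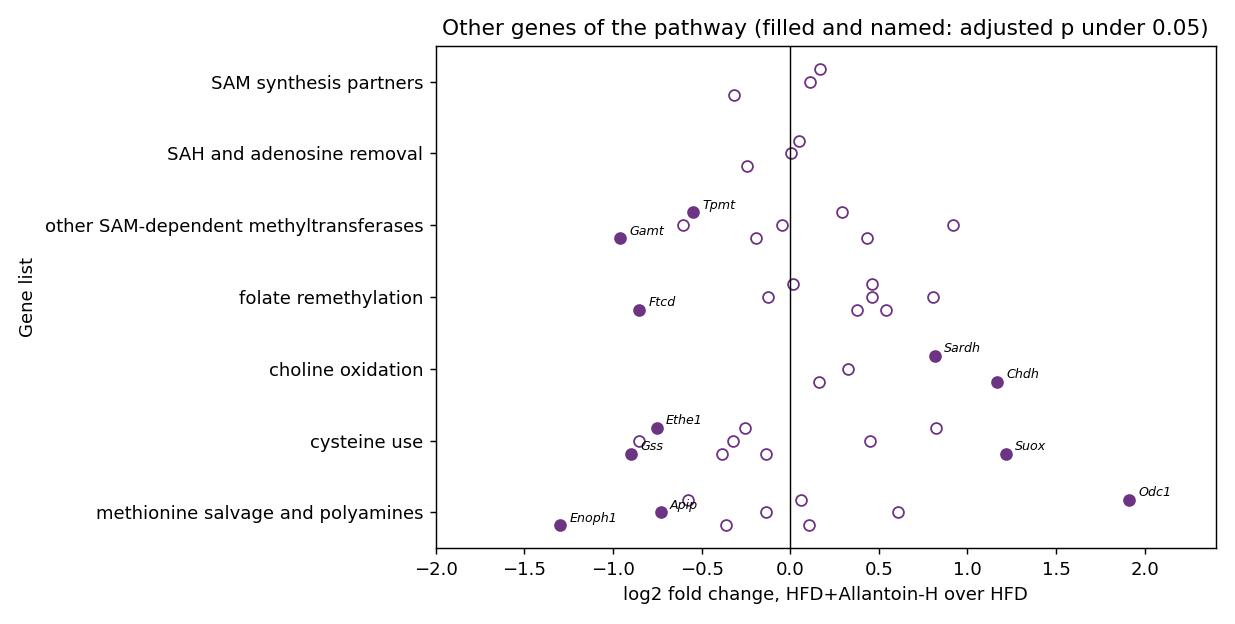
Log2 fold change of HFD+Allantoin-H over HFD for the 45 further pathway genes, 1 point a gene, set out by list on the vertical axis, with genes at an edgeR adjusted p under 0.05 filled and named. The 4 filled points to the right are Odc1, Suox, Chdh and Sardh, and the 7 to the left run from Enoph1 at −1.30 to Tpmt at −0.55.

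Markers of liver zonation were read as well. The enzymes of this pathway are known to be spread unevenly along the liver lobule, and the summed level of 6 pericentral markers was 9261 to 11919 CPM in HFD and 14106 to 15571 CPM in HFD+Allantoin-H, without overlap. Cyp2e1, at 5421 to 7494 CPM and 9865 to 10803 CPM, was the largest part of this sum. Without it the other 5 summed to 3841 to 4426 CPM and 4241 to 5317 CPM, with overlap. The summed level of 6 periportal markers was 2725 to 3585 CPM and 2034 to 2907 CPM, with overlap. Within the pericentral list 1 of 6 genes passed the test, Cyp1a2, which was lower, where 13.0% of all tested genes were called lower. The groups did not overlap in 3 of these 6 (44.3% of all tested genes), with Cyp2e1 and Slc1a2 higher and Cyp1a2 lower. Within the periportal list edgeR called 0 of 6, and the groups did not overlap in 1, Hsd17b13, which was higher. The summed level of 8 hepatocyte markers was 99926 to 100909 CPM in HFD and 76938 to 106984 CPM in HFD+Allantoin-H, most of it from Alb. Without Alb the other 7 summed to 37901 to 44970 CPM in HFD and 22536 to 24839 CPM in HFD+Allantoin-H, without overlap. The part of zonation or of hepatocyte content in the values of Gnmt, Mat1a and Bhmt was not tested.

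**Figure D5:**
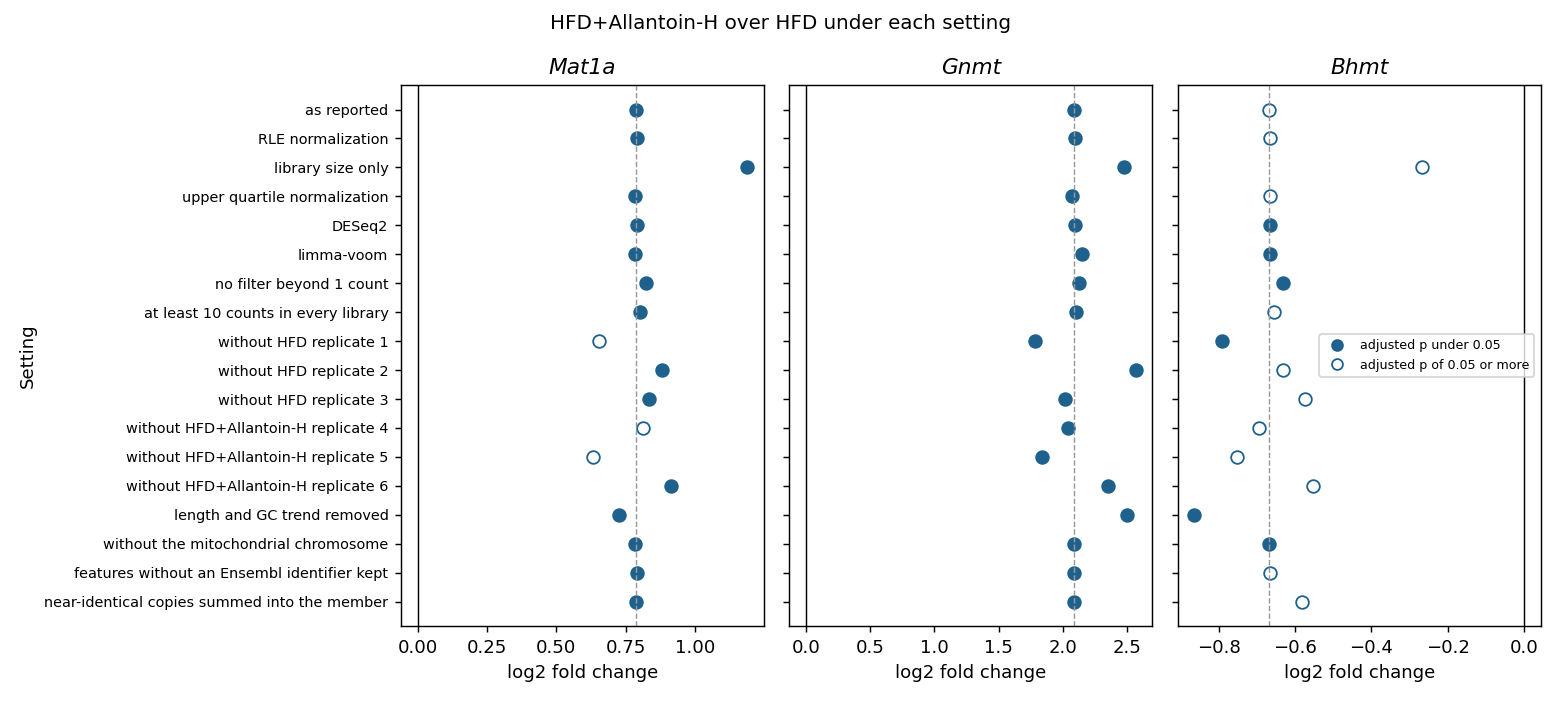
Log2 fold change of Mat1a, Gnmt and Bhmt (horizontal axes, which differ in range) under each processing setting (vertical axis), filled where the adjusted p is under 0.05, with a dashed line at the value as reported. Gnmt is filled in every setting shown, Mat1a is open without HFD 1, HFD+Allantoin-H 4 or HFD+Allantoin-H 5, and Bhmt is filled in 6 settings and lies nearest 0 with library size only, at −0.27.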

How the data were processed

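RNA-seq libraries of mouse liver, 3 from HFD and 3 from HFD+Allantoin-H, were used. The authors deposited raw read counts per gene, made from filtered reads, with no normalization. The aligner, counting tool and strand setting are not given in the sources used here, and the submitters' processing notes name GRCm38 (mm10). Of 54961 entries, 429 without an Ensembl identifier (0.197% to 0.306% of counts) were left out. Symbols, positions and union exon lengths came from GENCODE M21 (GRCm38), promoter windows from RefSeq (GRCm38.p6), and near-identical copies (at least 95% identity over at least 200 bases) from BLAST 2.17.0.

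Counts were analysed with edgeR 4.0.16 in R 4.3.3: TMM normalization, filterByExpr, the quasi-likelihood test with the group as the only term, and Benjamini-Hochberg adjustment over 12795 genes, called at an adjusted p under 0.05. The standard error came from the F statistic. The fit was tested on simulated data, where the share of false calls among all calls was above the threshold of 0.05. Replicate libraries differed by more than counting noise, so none was a duplicate. The 8 genes, the pathway and marker lists and the tests were chosen with earlier results of these data known. All 8 genes are named, and at most 3 called genes per pathway list, by smallest p. Of the listed pathway genes, 1 is not reported here and is left out of the counts of the list. Alternatives were DESeq2 1.42.0, limma-voom (limma 3.58.1), other normalizations, filters and thresholds, a length and GC trend correction, and leaving out each library or the mitochondrial chromosome. Adding the copies' counts to the member was chosen after seeing the data.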

Additional observations from a re-analysis of the deposited data

How the results depend on the processing

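Gnmt was called higher under all 19 alternatives tried, at log2 fold changes of 1.78 to 2.57. Mat1a (0.79) was not called at an adjusted p under 0.01 or with a log2 fold change above 1 required (0.79 in both), and leaving out a library gave 0.63 to 0.91. Bhmt (−0.67) was called lower by DESeq2 (−0.66), limma-voom (−0.67), with no filter beyond 1 count (−0.63), after removal of a length and GC trend (−0.86) and without the mitochondrial chromosome (−0.67), and leaving out a library gave −0.79 to −0.55, called without HFD 1. So 1 gene of the 8 was called lower under each of these 6, against 0 as reported, and 1 instead of 2 was called higher under either stricter threshold and in 3 of the fits leaving out a library (range 1 to 2). With library size only, Mat2a was called higher (0.70). Values that changed sign, none of them called, were Bhmt2 with library size only (0.39), with no filter (0.0073) and without HFD+Allantoin-H 6 (0.058), and Cbs without HFD 3 (−0.061), without HFD+Allantoin-H 4 (−0.019) and after the trend removal (−0.056). Leaving out a library gave −0.082 to 0.058 for Bhmt2 and −0.061 to 0.23 for Cbs.

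Among the 45 pathway genes, 4 were called higher as reported, 11 with library size only, 7 with no filter, 2 at an adjusted p under 0.01 and 2 to 7 when a library was left out. The 7 called lower became 0 with library size only and 1 under either stricter threshold, and 1 to 9 when a library was left out. Over all tested genes, 1446 were higher and 1666 lower. With library size only these were 3162 and 674, at an adjusted p under 0.01 443 and 573, with a log2 fold change beyond 1 required 722 and 974, and when a library was left out 460 to 1773 and 564 to 2008. The lowest counts came without HFD+Allantoin-H 5. Library size only moved the median of all genes by 0.41 on the log2 scale and the share of calls that were higher from 46.5% to 82.4%, and the changes above are relative to the TMM scale. The cause of these differences was not tested. No paired analysis was possible because the 2 groups share no replicate number in the labels.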
